A study of Homo sapiens with 6 samples.

Results

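The comparison described here set the RNA-seq libraries numbered P13 against those numbered P8 and P11, in 4 of the 6 libraries of the series. The cells were HCT-116, a human colon carcinoma line, made into stable lines by puromycin selection after transduction with a PMSCV vector that either carried GOLPH3 (Golgi phosphoprotein 3) or was empty. The P13 side held 2 libraries, one labelled GOLPH3 and one labelled Vector. The other side held the GOLPH3 library P8 and the Vector library P11. The labels give wild type as the genotype of all libraries, and none names a treatment of the cells beyond lysis in Trizol. They do not say what the P number counts, and the study's methods state only that cells came from different generations of each line. Members were chosen by the P number in the library title alone, and the P12 libraries stayed out of the main fit. Every fit described below as leaving out a library also held the P12 libraries, so it does not show the effect of the missing library alone. With 1 library for each label and side, the label was a covariate and each gene was also read within each label. Separate cultures are not described, so p-values measure only the spread between these libraries, and P number, preparation and time in culture cannot be told apart.

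RNA-seq counts fragments of RNA after they have been copied and amplified. Amplification and capture do not treat all sequences alike, and the share of guanine and cytosine (GC) in a transcript is a known influence on how efficiently it is recovered. Cells also carry RNA programmes that move together. The integrated stress response is one: amino acid shortage or a loaded endoplasmic reticulum leads to more of the transcription factor ATF4, which raises genes for amino acid synthesis, amino acid import and feedback on the stress itself. Growing cells further devote a large share of their RNA to ribosomal proteins and to the respiratory chain.

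Values are normalized reads, the deposited gene read counts divided by a factor for each library and not corrected for gene length. The whole reads behind them numbered 16069367 in GOLPH3 P8, 18088184 in GOLPH3 P13, 15708846 in Vector P11 and 18627835 in Vector P13. The share of values from the mitochondrial genome was 4.71% in Vector P13 and 9.75% to 9.97% in the other 3 libraries. GOLPH3 RNA, the targeted gene, stood at 1630 normalized reads in GOLPH3 P8, 1383 in GOLPH3 P13, 1892 in Vector P11 and 1472 in Vector P13. It was therefore not higher in the libraries labelled GOLPH3 than in those labelled Vector on either side, which goes against the label of an overexpressing line, and the labels are used below only as names. Its difference between P13 and P8 with P11 was -0.30 (SE 0.22, limma adjusted p = 0.41), and the exact two-sided permutation test gave p = 0.333, the smallest that 4 libraries allow.

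The cell type was checked against markers. The keratins KRT8, KRT18 and KRT19 and the adhesion proteins EPCAM and CDH1 were abundant in all 4 libraries, with EPCAM between 1758 and 6129 normalized reads, and CDX2 between 184 and 897. The other 4 of the 10 markers fixed for colon carcinoma were nearly absent, with at most 2 reads of VIL1, 4 of CEACAM5, 5 of LGALS4 and 9 of CDH17 in any library. Summed over the 10 colon carcinoma markers, the level was 79290 in GOLPH3 P8, 134400 in GOLPH3 P13, 34750 in Vector P11 and 41150 in Vector P13. KRT8 was the largest part of each sum, at 42610, 75110, 19430 and 23730. The markers did not move together from P11 to P13 within Vector. There EPCAM fell from 4220 to 1758 and CDH1 from 1505 to 912, while KRT8, KRT18, KRT19 and CDX2 rose. Within GOLPH3 EPCAM went from 5935 to 6129 and CDH1 from 3100 to 2704. The libraries of different labels stood far apart. For 194 genes neither GOLPH3 library held more than 3 reads while each Vector library reached 50 normalized reads or more, among them IRS4, an insulin receptor substrate, at 1006 in Vector P11 and 4831 in Vector P13. Of these 194, 190 were higher in Vector P13 than in Vector P11, with a median of 1.21 on the log2 scale. They made up 0.218% of Vector P11 and 0.597% of Vector P13. Of the 194, 4 passed in the comparison below, and their part in the results was not tested further. Of the 9 fibroblast markers, COL1A1 had 466 to 1499 normalized reads, while COL1A2, DCN and POSTN, which fibroblasts also express, had at most 2 reads. Of the leukocyte markers, PTPRC, CD3E, CD3D, MS4A1 and CD68 did not exceed 3 reads anywhere, and the summed levels of the 9 leukocyte markers ran from 19.3 to 75.5.

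P13 differed from P8 and P11 at many genes, mostly in the same direction in both labels, and the genes sorted by their base composition. Of 26536 genes tested on log2(normalized reads + 1), 4260 (16.1%) passed an adjusted p of 0.05 in limma, of which 2545 (9.59%) were higher at P13 and 1715 (6.46%) were lower. This fit splits limma's prior for the spread at a mean of 10 normalized reads, a choice made after the data had been seen, and with the prior as first planned, over all genes at once, 2795 genes passed, 1728 of them higher. Without GOLPH3 P13 the count was 2326, without Vector P11 it was 1800 and without Vector P13 it was 981, in fits that also held the P12 libraries. Without the label in the model no gene passed, and 2787 had an unadjusted p under 0.05.

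The direction was shared between the labels for most genes. Among 12638 genes with a mean of at least 50 normalized reads, 78.9% moved the same way from P8 to P13 in the libraries labelled GOLPH3 as from P11 to P13 in those labelled Vector. Pearson's r between these differences was 0.65 and Spearman's rho 0.70 across genes, which share their libraries and are not independent. A change of at least 1 on the log2 scale in the same direction in both labels was seen for 1931 genes upward (7.28% of those tested) and for 1360 downward (5.13%), and 1331 genes (5.02%) changed by as much in opposite directions. Among the genes with a mean of at least 50, where counting noise is smaller, these counts were 721, 290 and 50.

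**Figure D1:**
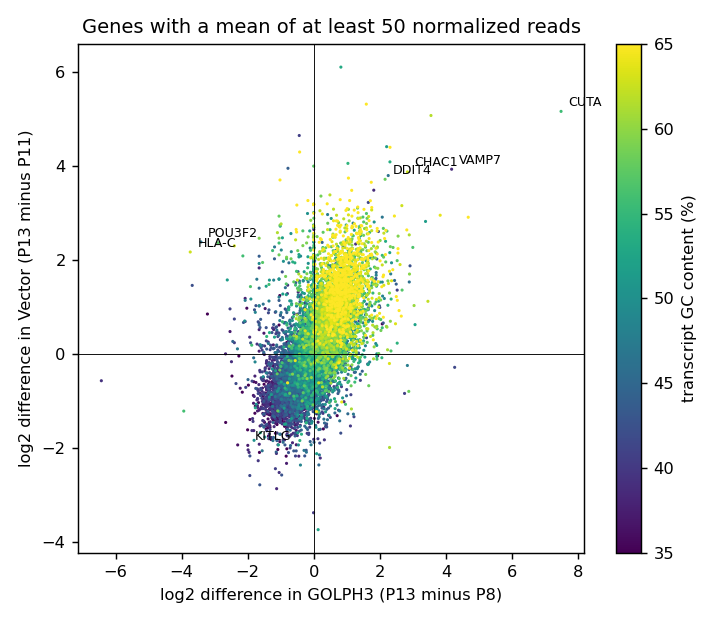
Each point is a gene with a mean of at least 50 normalized reads. The x axis gives the log2 difference from P8 to P13 in the libraries labelled GOLPH3, the y axis that from P11 to P13 in those labelled Vector, and the colour the GC content of the transcript in percent. GC-rich genes lie at the upper right and GC-poor genes at the lower left, with CUTA at 7.48 and 5.16 at the far upper right.

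Transcript GC content ordered the differences. The median log2 difference was -0.78 among 1031 genes with 30% to 38% GC and rose without a break over the bins to 1.10 among 1179 genes with 62% GC or more. In the GC-poorest bin 54.8% of genes were called lower and 0.291% higher, and in the GC-richest 74.8% were called higher and 0% lower. Both labels showed it, from -0.74 to 0.83 within GOLPH3 and from -0.80 to 1.36 within Vector. The mean GC content of nuclear reads, each weighted by its gene's transcript, was 51.5% in GOLPH3 P13 against 48.8% in GOLPH3 P8, and 49.9% in Vector P13 against 46.5% in Vector P11. Both P13 libraries thus lay above both others, by less than the gap between GOLPH3 P13 and Vector P13 for the nearest pair.

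**Figure D2:**
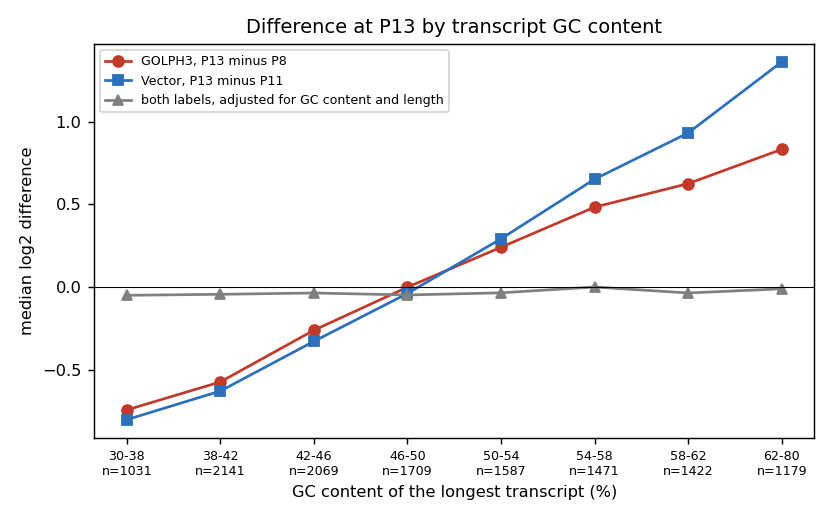
Median log2 difference (y axis) of genes grouped by the GC content of their longest transcript in percent (x axis, with the number of genes in each bin), for the libraries labelled GOLPH3, those labelled Vector, and both after adjustment for GC content and length. The lines within each label climb from below -0.7 to above 0.8. The adjusted medians lie within 0.05 of 0, which follows from fitting the adjustment on these same genes.

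Transcript length went along with it. The median difference was 0.43 for 492 genes with transcripts under 1000 bases and -0.41 for 1156 genes with transcripts of 8000 bases or more. Genes called higher had a median transcript length of 2679 bases and a median GC content of 60.4%, those called lower 5345 bases and 39.2%. To see what was left beyond these properties, the difference of each library from the gene's mean was fitted on GC content and log2 length by splines and the fitted part was subtracted. Among 16774 genes with a mean of at least 10, 4928 (29.4%) passed before this adjustment and 166 (0.99%) after it, 129 higher (0.769%) and 37 lower (0.221%), and 146 of the 166 had passed before as well. Pearson's r between the labels among genes with a mean of at least 50 was 0.30 after it. The limma adjusted p also rose for some genes whose difference grew. VAMP7 went from 4.05 to 4.60 with adjusted p from 1.3e-07 to 0.0004, and SNAI2 from 1.49 to 1.90 with adjusted p from 0.0032 to 0.015. Not passing after the adjustment therefore does not by itself show that a difference went away. The adjustment was chosen after seeing the data and in 1 form only. It takes away any biological difference that runs with GC content or length as well, and the origin of the gradient was not tested.

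The named genes span a wide range of base composition. Of the named genes that passed, BBC3 (PUMA, a p53-induced promoter of apoptosis) had the highest transcript GC content, 69.7%, and SLC16A7 (a monocarboxylate transporter) the lowest, 33.3%. The first 120 coding bases of each are shown with G and C in capitals, from the GENCODE 29 transcripts.
BBC3: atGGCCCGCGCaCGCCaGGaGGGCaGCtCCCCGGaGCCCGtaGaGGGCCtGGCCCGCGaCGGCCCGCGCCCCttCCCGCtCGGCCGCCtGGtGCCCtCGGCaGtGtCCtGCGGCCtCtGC
SLC16A7: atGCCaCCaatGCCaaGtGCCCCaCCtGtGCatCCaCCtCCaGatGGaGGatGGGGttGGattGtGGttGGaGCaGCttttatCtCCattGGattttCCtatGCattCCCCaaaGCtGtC
G and C made up 79.2% of the BBC3 stretch and 51.7% of the SLC16A7 stretch. The SLC16A7 stretch is thus not GC-poor, since the median over the transcripts tested was 48.2%. Over the whole coding sequence G and C made up 76.5% of BBC3 and 43.0% of SLC16A7. BBC3 had 469 normalized reads in GOLPH3 P8, 1581 in GOLPH3 P13, 110 in Vector P11 and 570 in Vector P13, a difference of 2.06 (SE 0.27, limma adjusted p = 3.0e-07) that came to 0.59 after the adjustment. SLC16A7 had 459, 146, 519 and 120 in the same order, a difference of -1.87 that came to -0.93, and neither passed after the adjustment.

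The 10 genes with the largest rises in both labels were led by CUTA, which encodes a protein linked to the membrane anchoring of acetylcholinesterase. CUTA (chromosome 6, 33416442 to 33418317 on GRCh38) had 5.37 normalized reads in GOLPH3 P8, 1137 in GOLPH3 P13, 29.6 in Vector P11 and 1093 in Vector P13. The P13 libraries lay close together and far above the others, with a difference of 6.32 (SE 0.41, limma adjusted p = 7.0e-16) that was still 5.64 after the adjustment (adjusted p = 5.1e-05). In fits that left out 1 library and held the P12 libraries, the difference of CUTA was 3.86 without GOLPH3 P8 and 5.602 without Vector P13, where it did not pass. The first of these lies below both within-label changes of CUTA, 7.48 and 5.16. Its exons overlap those of PHF1 on the opposite strand, and the counting is not stated to use strand. PHF1 itself fell from 52.6 to 11.2 within Vector and had at most 15.03 in the libraries labelled GOLPH3.

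VAMP7, a SNARE protein of vesicle fusion, followed the same pattern at 10.7 in GOLPH3 P8, 210 in GOLPH3 P13, 13.2 in Vector P11 and 215 in Vector P13. Its difference was 4.05 (SE 0.50, limma adjusted p = 1.3e-07), and at 38.7% GC it ran against the gradient, reaching 4.60 after the adjustment. VAMP7 lies in a region that the X and Y chromosomes share, so its reads depend on how identical copies were counted. PSENEN, a subunit of gamma-secretase, rose from 14.0 to 155 within GOLPH3 and from 15.3 to 114 within Vector, and its exons also overlap those of other genes on both strands. LENG8 had 0 reads in GOLPH3 P8, 10.7 in GOLPH3 P13, 7.67 in Vector P11 and 291 in Vector P13, and overlaps LENG8-AS1 and LENG9. Without Vector P13 the difference of PSENEN was 2.81, against 3.10 with all 4 libraries, and that of LENG8 was 3.01, against 4.31, and neither passed. Of the 6059 genes with such an overlap and a mean of at least 50, 32.6% were called, and of the 6579 without one 32.2%. Whether overlap bears on the genes named here was not tested.

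HRAS, the small GTPase of growth factor signalling, had 21.5 normalized reads in GOLPH3 P8, 572 in GOLPH3 P13, 6.57 in Vector P11 and 55.8 in Vector P13 (difference 3.79, SE 0.53). CDKN1C, an inhibitor of cyclin-dependent kinases, had 16.1, 241, 6.57 and 57.5 in the same order (difference 3.39, SE 0.57). For both, GOLPH3 P13 was highest and each P13 library lay above both others. Both are GC-rich, at 65.8% and 63.8%, and their differences after the adjustment were 2.47 (limma adjusted p = 0.049) and 2.25 (adjusted p = 0.070). HOXD9, a homeobox factor, and KIF1A, a motor of axonal transport, had 0 reads in GOLPH3 P8 and at most 6.41 normalized reads in GOLPH3 P13. The difference of HRAS was 3.81 without GOLPH3 P13 and 3.77 without Vector P13, neither past the threshold, and 2.44 without GOLPH3 P8, where it passed. HOXD9 passed only without GOLPH3 P8 among the fits that left out a library, and KIF1A did not pass without Vector P13, like CCDC106. Within Vector HOXD9 rose from 77.8 to 700 and KIF1A from 163 to 948. On the log2 scale the change of HOXD9 was 2.66 within GOLPH3 and 3.15 within Vector, and that of KIF1A was 2.89 and 2.53. Both labels count equally in the difference, so for these genes it rests in large part on a few reads in GOLPH3 P13. CCDC106, a coiled-coil protein whose exons overlap ZNF580 and ZNF581, had 5.37, 43.8, 52.6 and 332.

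The 10 largest falls were smaller in size and more alike between labels. KITLG, the ligand of the receptor KIT, had 14060 normalized reads in GOLPH3 P8, 3519 in GOLPH3 P13, 15290 in Vector P11 and 3949 in Vector P13. The pairs did not overlap and each side agreed closely across labels, with a difference of -1.98 (SE 0.23, limma adjusted p = 3.6e-08) and -1.24 after the adjustment (adjusted p = 0.0086). HPGD, which breaks down prostaglandins, fell from 210 to 53.4 within GOLPH3 and from 379 to 87.5 within Vector. Its difference of -2.03 was -1.97 without Vector P13 (limma adjusted p = 0.053), and with all 4 libraries it passed after the adjustment, at -1.46 (limma adjusted p = 0.048). MUC16, a membrane mucin, CMYA5, SMG1P6 and the noncoding RNAs LINC00861, LINC02458 and AC010226.1 fell by 1.83 to 2.27 and did not pass after it, nor without GOLPH3 P13, Vector P11 or Vector P13, and for MUC16 and CMYA5 GOLPH3 P8. SMG1P6 is a pseudogene of SMG1, and reads of the 2 may not be told apart. Apart from MUC16 at 50.3%, the falling genes had 33.3% to 42.4% GC.

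Genes of the integrated stress response were higher at P13, most of all the feedback genes. Of 46 measured members 21 rose and 2 fell, where 9.59% of all genes tested were called higher and 6.46% lower. The shares were larger in the fit of the 16774 genes with a mean of at least 10, at 2915 higher and 2013 lower. This bears on every list below. The list's median difference was 0.74 against 0.06 over all genes tested, and its median GC content was 52.1% against 48.2%. Leaving out 1 library left 10 to 19 rising, fewest without Vector P13 and Vector P11, and the median between 0.57 and 0.79. Among the 10 feedback and other target genes 7 rose and none fell, with a median of 1.98. Their median GC content was 58.5%, and 52.3% of genes with 58% to 62% GC and a mean of at least 50 were called higher. After the adjustment their median was 1.27 and 4 of the 9 with a value passed. CHAC1, which degrades glutathione, had 177 normalized reads in GOLPH3 P8, 1267 in GOLPH3 P13, 93.1 in Vector P11 and 1377 in Vector P13 (difference 3.35, SE 0.28, limma adjusted p = 4.5e-12). DDIT4, an inhibitor of mTORC1, had 1228, 5482, 166 and 2199 in the same order (difference 2.94, SE 0.25). SESN2, a leucine sensor upstream of mTORC1, had 696, 2441, 627 and 3072, and STC2, a secreted glycoprotein, had 1463, 4805, 986 and 4261. In each of these genes both P13 libraries exceeded both others.

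The transcription factors of this response moved less. ATF4 itself, which is controlled mainly in translation, had 7189 normalized reads in GOLPH3 P8, 12290 in GOLPH3 P13, 6552 in Vector P11 and 10230 in Vector P13 (difference 0.71, limma adjusted p = 0.031). DDIT3 (CHOP), CEBPB and ATF3 also rose, by 1.38, 1.45 and 0.91, while CEBPG and ATF5 had differences of 0.21 and -0.02 and did not pass. Of the 8 amino acid transporters 5 rose, among them SLC3A2 at 1.19, the heavy chain of several exchangers, and SLC38A2 fell by 0.92. Of the 11 enzymes of amino acid synthesis 4 rose, PHGDH, the entry enzyme of serine synthesis, the most at 1.42. Of the 11 tRNA synthetases AARS1 rose by 0.90, EPRS1 fell by 0.67 and the other 9 did not pass. After adjustment for GC content and length, 6 of the 45 members with a value still passed, all higher, namely CHAC1 at 2.28, DDIT4 at 2.12, STC2 at 1.71, SLC1A4 at 1.32, SESN2 at 1.27 and PHGDH at 1.09. The adjusted median of the list was 0.34, against -0.04 over all genes of that fit. ATF4 was at 0.01 after the adjustment.

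**Figure D3:**
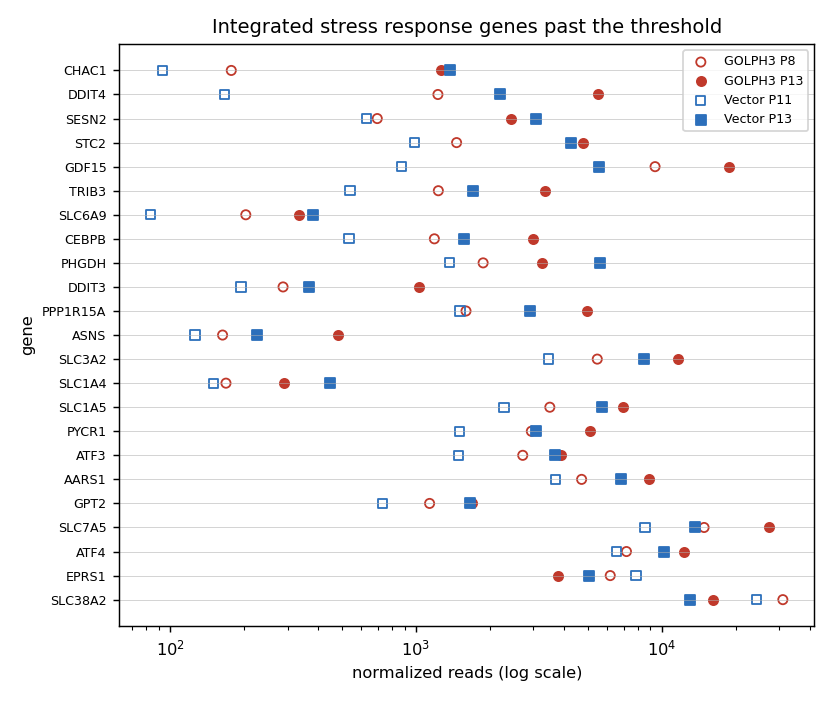
Normalized reads (x axis, log scale) of the 23 integrated stress response genes that passed, 1 gene a line, with open marks for P8 and P11, filled marks for P13, circles for the libraries labelled GOLPH3 and squares for those labelled Vector. The filled marks lie to the right of the open mark of the same label for 21 genes and to the left for EPRS1 and SLC38A2.

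Several of these genes carry a composite element read by ATF4 and its C/EBP partners near their start. The motif TGATGNAA was searched on both strands, with TTNCATCA as its reverse complement, in the 300 bases from 250 before to 50 after the start of each gene in the RefSeq promoters (GRCh38.p14). It was found in 12 of the 39 list members that matched a promoter (30.8%) and in 1003 of all 27305 promoters (3.67%). Because the list was built from known targets of this pathway, the share is a description. The windows around the motif, in capitals, are shown for the 5 genes that held it and rose.
CHAC1: cccctgccgTTGCATCActcctgcca
SLC3A2: caggactccTTACATCAgctcc
AARS1: ttctcgcagTTGCATCAgccaagtta
ASNS: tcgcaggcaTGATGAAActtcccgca
ATF3: aggtcaggaTGATGGAAggctgtcat
They lie at chr15:40953253-40953278 (plus strand), chr11:62881727-62881748 (plus), chr16:70289677-70289702 (minus), chr7:97872460-97872485 (minus) and chr1:212565207-212565232 (plus). The synthetase genes IARS1, NARS1, MARS1, CARS1 and TARS1 held the motif too and did not pass, and the same was true of SLC7A1 and FGF21. FGF21 had a difference of 2.16 (limma adjusted p = 0.21). The motif thus did not separate the members that rose from those that did not. DDIT4, SESN2 and STC2 rose and had no such letters in this window.

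Many ribosomal protein genes and nuclear genes of the respiratory chain rose at P13. Of 76 ribosomal protein genes measured 31 rose, none fell and 64 had a difference above 0, with a median of 0.63, and 10 of the list rose by at least 1 in both labels. Leaving out any 1 library left 13 to 16 rising and the median between 0.49 and 0.73, and 1 gene fell without GOLPH3 P13. RPL41, the smallest protein of the large subunit, had 5114 normalized reads in GOLPH3 P8, 18930 in GOLPH3 P13, 3992 in Vector P11 and 12710 in Vector P13 (difference 1.78, SE 0.24, limma adjusted p = 5.0e-07). RPL36 and RPL8 followed at 1.67 and 1.72, and each stood at 0.53 after the adjustment and did not pass. Transcripts of RPL41, RPL36 and RPL8 are short, at 699, 907 and 1041 bases. Among genes with a mean of at least 50, those with transcripts under 1000 bases had a median difference of 0.43. The list's median GC content, 47.9%, was close to that of all genes. After the adjustment its median was 0.33 and 5 genes passed, RPL41 at 1.50, RPL37 at 1.47, RPS15A at 1.36, RPL39 at 0.99 and RPL35A at 0.93. Many ribosomal protein genes have near-identical pseudogenes, and their counts may be shared with them.

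Of 46 nuclear respiratory chain genes 20 rose, none fell and 35 had a difference above 0, with a median of 0.49. Without Vector P13 11 rose, and without GOLPH3 P13 13 rose and 1 fell. COX8A, a subunit of cytochrome c oxidase, had 517 normalized reads in GOLPH3 P8, 2580 in GOLPH3 P13, 428 in Vector P11 and 2085 in Vector P13 (difference 2.30, SE 0.23, limma adjusted p = 1.3e-09). NDUFA1 and NDUFS7 of complex I rose by 1.92 and 1.93. After the adjustment the median was 0.38, and COX6A1, COX8A, NDUFA1, ATP5F1E and UQCRB passed, at 2.19, 1.31, 1.28, 1.25 and 1.06.

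The mitochondrially encoded genes did not share this direction. Their median was 0.28 within GOLPH3 and -1.16 within Vector, and of the 15 measured, MT-ND2 and MT-ND4L fell and the other 13 did not pass. MT-ND2 had 109400 normalized reads in GOLPH3 P8, 75590 in GOLPH3 P13, 133200 in Vector P11 and 31730 in Vector P13, so Vector P13 was lowest, as it was for all protein genes of the mitochondrial genome. It was also the library with the smallest mitochondrial share, and without it the list's median was 0.15 and no member passed. Without GOLPH3 P13 the median was -1.22 and 10 members were called lower. MT-ND2 did not pass with the prior over all genes at once.

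Immediate early genes, which respond to growth factors and stress within minutes, were mostly higher. Of 35 measured 17 rose and 1 fell, with a median of 0.73, and 10 rose without Vector P11 and 9 without Vector P13. The median came to 0.17 after the adjustment. JUN, a subunit of AP-1, had 3248 normalized reads in GOLPH3 P8, 9096 in GOLPH3 P13, 1271 in Vector P11 and 9561 in Vector P13 (difference 2.20, SE 0.24, limma adjusted p = 1.2e-08) and stood at 1.61 after the adjustment (adjusted p = 0.0053). JUNB, at 64.9% GC, went from 1.80 to 0.59 and no longer passed, and IER2 from 1.22 to 0.28. IER5 and CCN1 also passed after the adjustment, at 1.21 and 0.98. Of 24 YAP/TAZ targets 9 rose and 1 fell, with 4 rising without GOLPH3 P8, 3 without GOLPH3 P13 and 5 without Vector P13. GADD45A, a growth arrest gene, rose by 1.59 and was at 1.19 after the adjustment. Of 31 p53 targets 10 rose and 5 fell, with 5 and 3 without Vector P11, 6 and 1 without Vector P13, 7 and 2 without GOLPH3 P13 and 9 and 3 without GOLPH3 P8. SESN2, GADD45A and PMAIP1 were the members that passed after it.

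The list of 27 NF-kB and chemokine genes had a median of 0.88, with 10 rising and REL falling by 1.29. Without GOLPH3 P8 4 rose, without GOLPH3 P13 2 and without Vector P13 3. CXCL2, a neutrophil chemokine, had 21.5 normalized reads in GOLPH3 P8, 82.2 in GOLPH3 P13, 25.2 in Vector P11 and 85.8 in Vector P13 (difference 1.81, SE 0.53), and did not pass without GOLPH3 P8, GOLPH3 P13 or Vector P13. NFKBIZ alone passed after the adjustment. Of 28 cholesterol genes 12 rose and 2 fell, with a median of 0.51 that came to 0.12, and 2 rose without Vector P13 and 4 without Vector P11. CYP51A1, the lanosterol demethylase, was the member that passed after it, at 2.12, with 123 and 246 normalized reads in GOLPH3 P8 and P13 and 46.01 and 249 in Vector P11 and P13. Its difference before the adjustment, 1.70, was 2.56 without GOLPH3 P13, and was 1.50 without Vector P11 and 0.83 without Vector P13, where it did not pass. Of 27 NRF2 genes 7 rose and 4 fell, with a median of 0.23. Without GOLPH3 P13 3 rose and 4 fell and the median was -0.21, and without either Vector library 4 rose and 1 fell. SRXN1, which repairs oxidized peroxiredoxins, rose by 3.19 from 52.6 to 264 within GOLPH3 and from 5.48 to 109 within Vector.

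Mitotic genes and heat shock chaperones held more falls than rises. Of 36 mitotic genes 13 fell and 2 rose, with a median of -0.28, and 7 fell without GOLPH3 P13 and 8 without Vector P11. CENPE, a kinetochore motor, had 1035 normalized reads in GOLPH3 P8, 300 in GOLPH3 P13, 1436 in Vector P11 and 596 in Vector P13 (difference -1.53, SE 0.24, limma adjusted p = 1.5e-05), though not without GOLPH3 P13, and TTK and ECT2 fell by 1.28 and 1.21. These transcripts are GC-poor, with a list median of 43.8%, and no mitotic gene passed after the adjustment. Over all genes tested 9.59% were called higher, and in the fit of the 16774 genes with a mean of at least 10 the count was 2915. The 40 DNA replication genes had a median of 0.00, with 6 rising and none falling. Without GOLPH3 P13 3 of them rose, and 1 without Vector P11 or without Vector P13. Of 17 heat shock genes 6 fell and 2 rose, 1 falling without Vector P13 and 3 without Vector P11, and the list's median was 0.15 within GOLPH3 and -0.85 within Vector. HSP90AA1 had 71190, 39330, 88330 and 37660 in the order above, and HSPB1, at 64.3% GC, rose by 1.31.

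Of the lists closest to the study's topic, 6 of 37 autophagy genes rose and 6 fell, with a median of -0.05. MAP1LC3B2 rose by 1.19, though not with the prior over all genes at once, and PIK3C3, the lipid kinase that starts autophagosomes, fell by 1.04. None of the autophagy genes passed after the adjustment. Of 31 lysosomal genes 12 rose and none fell, led by CTSD, the protease cathepsin D, at 1.97, and 5 rose with the prior over all genes and 2 without Vector P13. None passed after the adjustment, with a median that went from 0.49 to 0.11 and CTSD at 0.84 (limma adjusted p = 0.10). The counts of the lists in this paragraph and the next also changed when 1 library was left out. Of 27 epithelial markers 6 rose and 5 fell, and their median went from 0.55 to -0.13 with the adjustment. Of 21 mesenchymal markers 2 rose, where 9.59% of all genes were called higher. One was SNAI2, a repressor of E-cadherin, with 15.03 and 62.98 normalized reads in GOLPH3 P8 and P13 and 429 and 851 in Vector P11 and P13. SNAI2 still passed without Vector P11 but not without any of the other 3 libraries, and stood at 1.90 after the adjustment (limma adjusted p = 0.015). edgeR, after its own filter, called 9 mesenchymal markers higher, and 2876 of all 17145 genes it tested. VIM, at 5.37 in GOLPH3 P8, 11.7 in GOLPH3 P13, 1653 in Vector P11 and 3194 in Vector P13, had a difference of 0.98 that did not pass (adjusted p = 0.056).

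The other lists had medians from -0.13 to 0.90. Replication-dependent histones had the highest, 0.90 over 19 genes with 2 rising, neither of them with the prior over all genes. Hypoxia genes had 8 rising and 3 falling of 38, led by ADM at 1.21. Interferon-stimulated genes had 8 and 4 of 41, with IFITM2 up by 1.32 and SAMD9 down by 1.45. TGF-beta and BMP genes had 9 and 5 of 25, fatty acid synthesis 5 and 4 of 16, endoplasmic reticulum stress 2 and 3 of 22, metallothioneins and zinc response 0 and 1 of 8, and colon differentiation 1 and 0 of 20, the riser being CDX2 at 1.41. Without GOLPH3 P13 the median of hypoxia genes turned from 0.31 to -0.10 and that of interferon-stimulated genes from 0.085 to -0.34. Without Vector P11 that of TGF-beta and BMP genes turned from 0.28 to -0.18. Each of these medians kept its sign in the other fits that left out 1 library.

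**Figure D4:**
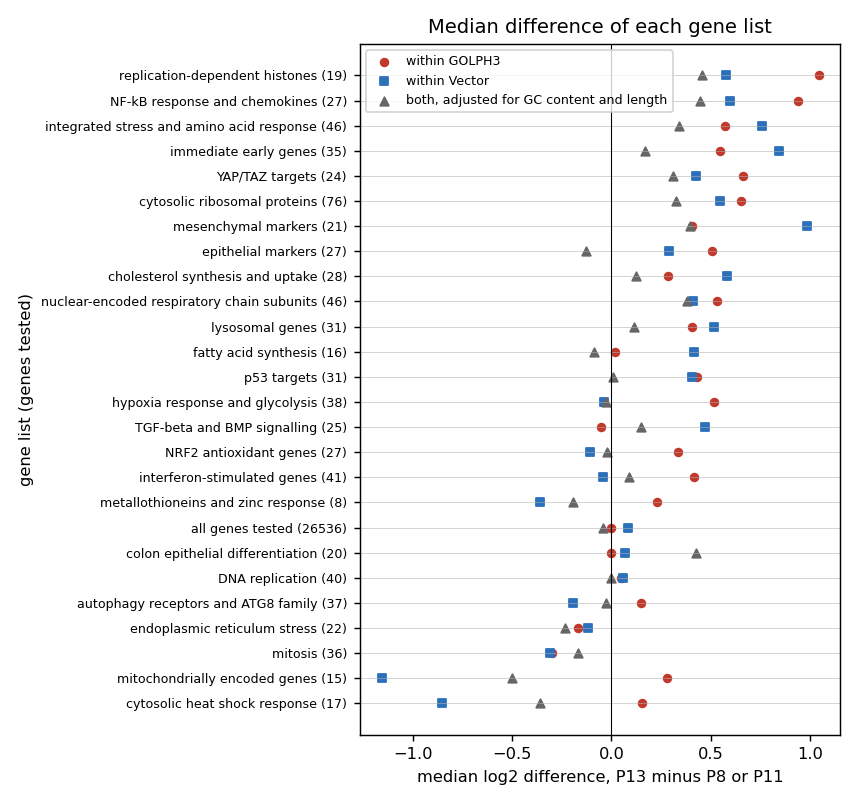
Median log2 difference (x axis) of each gene list (y axis, with the genes tested), within the libraries labelled GOLPH3, within those labelled Vector, and over both after adjustment for GC content and length. For the integrated stress response the adjusted median is 0.34, for epithelial markers it changes sign to -0.13, and the mitochondrially encoded genes differ most between labels, at 0.28 and -1.16.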

How the data were processed

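Of 6 RNA-seq libraries in 1 table, 4 were compared. The deposited signal values are read counts per gene, scaled by the authors with a factor specific to each library: all values above 0 are whole multiples of one step (tolerance 0.05 reads), so whole reads were recovered. The submitters' processing notes name fastp 0.20.0, HISAT2 2.1.0, Cufflinks, featureCounts 1.6.1 and DESeq2 on GRCh38, without roles. Library preparation strand and annotation release are not given in the sources used here. Second rows of 44 identifiers were added, and 96.4% of identifiers matched GENCODE 29, which gave exons, transcript GC content and length.

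Genes that reached a value of 1 in 3 or more of the 6 libraries were fitted on log2(value + 1) with limma 3.58.1 in R 4.3.3 (label as covariate, trended prior, 1 residual degree of freedom, Benjamini-Hochberg over all genes). A fold change on this scale understates the change of low genes. On simulated data the fit with a single prior recovered none of the changed genes. Robust estimation and minimum means of 2, 5 and 10 were then tried on simulated and real data, and the prior was split at a mean of 10. That choice followed sight of the real counts and raised the calls from 2795 to 4260, so both are given. edgeR 4.0.16 and DESeq2 1.42.0 on the recovered reads were alternatives. edgeR, after its own filter, called 4855 of 17145 genes.

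The members and the lists were chosen with earlier results of these data known. Named genes were GOLPH3, the 10 largest rises and falls by the smaller of the within-label changes (mean at least 50, same direction, adjusted p under 0.05), 3 members of each of 25 lists ranked likewise, and 5 genes moving in opposite directions. One of the 10 falls is not reported here. Further list members were named after their values were seen. List symbols were matched by symbol or GENCODE 29 name. Alternatives were other normalizations, pseudocounts, filters, left-out libraries and the adjustment for GC content and length (splines with 5 degrees of freedom, fitted on genes with a mean of at least 50).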

Additional observations from a re-analysis of the deposited data

Results flagged for a closer look

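Some genes and lists moved in opposite directions in the labels, with 1 library for each label and side, so the difference between labels was not tested. POU3F2, a neural POU-domain factor, changed by -3.41 on the log2 scale in the libraries labelled GOLPH3 (P13 minus P8) and by 2.38 in those labelled Vector (P13 minus P11). QPRT, an enzyme of NAD synthesis, changed by -2.90 and 2.36, EMILIN3, a matrix glycoprotein, by -2.40 and 2.30, and SOWAHA by -2.15 and 2.08. In these 4 genes the highest level in a library labelled GOLPH3 was 12.9 normalized reads, so the fall there rests on few reads. HLA-C, a class I antigen-presenting molecule, changed by -3.74 and 2.17, with 240.5 normalized reads in GOLPH3 P8, 17.1 in GOLPH3 P13, 387 in Vector P11 and 1740 in Vector P13, and its exons overlap the annotation of HLA-B.

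Among the lists, the median of the cytosolic heat shock genes was 0.15 within GOLPH3 and -0.85 within Vector. That of the mitochondrially encoded genes was 0.28 and -1.16, and that of the NRF2 antioxidant genes 0.34 and -0.11. Metallothioneins and zinc response had 0.23 and -0.36, and the autophagy genes 0.15 and -0.20. In the same order hypoxia genes had 0.52 and -0.04, and interferon-stimulated genes 0.42 and -0.04. TGF-beta and BMP genes had -0.05 and 0.47, and colon differentiation -0.002 and 0.071.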

How the results depend on the processing

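The count of 4260 genes stayed within 1.5 times under edgeR, DESeq2, TMM factors, quantile normalization, pseudocounts of 0.1 and 5, no filter, a minimum of 10 in each library, a mean of at least 10 and the fit of all 6 libraries (3338 to 4928). It was 2795 with a single prior over all genes, 2767 of them shared, and 166 after adjustment for GC content and length. It was 0 without the label covariate (2787 at an unadjusted p under 0.05) and 0 without a mean-dependent prior (5292), so those calls rest on the label term and on borrowed spread. Leaving out 1 library gave 981 to 4158. Quantile normalization put 50.5% of calls higher, against 59.7%. The 3291 genes changing by at least 1 in the same direction became 7854 at a minimum of 0.58, 340 at 2, 1432 with a pseudocount of 5, 1064 with a minimum of 10 in each library, 1556 at a mean of at least 10 and 573 after the adjustment. Of the named genes, SREBF1 turned to -0.085, BCL3 to -0.093, TK1 to -0.451, H2BC12 to -0.091, H1-2 to -0.172, MT2A to -0.048 and PKP3 to -0.312 with the adjustment, and MT-ND4 ranged from -1.624 to 0.033 as 1 library was left out, the last without Vector P13. Of the 82 named genes that passed, 61 no longer did after the adjustment, 38 without Vector P13 and 5 with the single prior. Over the alternatives other than the adjustment and the single prior, the adjusted p ran from 4.7e-22 to 0.47 for CHAC1, from 1.5e-34 to 0.47 for CUTA and from 2.8e-15 to 0.47 for KITLG, the highest coming from the fit without the label covariate. Low counts limit genes under about 10 normalized reads. No paired analysis was possible because the replicate numbers coincide with the sides compared.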
